A study of Mus musculus with 6 samples.

Results

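Axon guidance ligands and receptors were selected by gene symbol from the sciatic nerve transcriptome: semaphorins of classes 3 to 7, plexins, neuropilins, ephrins, Eph receptors, Slits, Robos, netrins and Unc5 receptors. The selection holds 69 of the 39174 genes in the tables and 68 symbols, since Efna5 is listed under 2 identifiers. RNA was sequenced from whole sciatic nerves of 3 wild-type mice, numbered 2, 4 and 5, and of 3 mice of the genotype Plekhg5-/-, numbered 2, 3 and 5. The animals were adult, 12 months old according to the text of the study, the labels give only the genotype of each mouse, and the allele behind Plekhg5-/- is not described in the sources used here. Plekhg5 encodes a guanine nucleotide exchange factor, and the comparison asks which transcripts of the nerve differ when it is missing. A whole nerve holds Schwann cells, fibroblasts, perineurial and endothelial cells, macrophages and axons, so that fewer cells of a type and less RNA per cell cannot be told apart in these values.

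Guidance cues tell a growing axon where to go, and their receptors pass the signal to the actin cytoskeleton. Most secreted class 3 semaphorins bind a neuropilin and a plexin together, while most membrane-bound semaphorins bind plexins directly. Ephrins are held on the cell surface, ephrin-A proteins by a lipid anchor and ephrin-B proteins by a transmembrane segment, and bind Eph receptor tyrosine kinases on the neighboring cell. Slits bind Robo receptors, and netrins bind Dcc, which attracts, or Unc5 receptors, which repel. In the adult the same molecules act outside axon growth, in blood vessels, in the immune system and between Schwann cells and axons after injury.

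Values are FPKM, the fragments mapped per length of transcript and per size of the library, which allow levels of different genes to be set side by side. They were divided by a factor per library (0.744 to 1.12), and fold changes in log2 are of FPKM + 1, Plekhg5-deficient minus wild-type, which understates the change of low genes. Plekhg5 was at 3.65, 4.12 and 5.27 in wild-type mice 2, 4 and 5 against 0.142, 0.140 and 0.0521 FPKM in Plekhg5-deficient mice 2, 3 and 5, so that every library matched its label (log2 fold change -2.26, SE 0.18, adjusted p = 0.0382 with limma). The defining transcripts of myelinating Schwann cells were abundant in all 6 libraries: the 12 markers on the list summed to between 11172 and 20169.7 FPKM. Libraries also differed in other tissue. The 8 neuronal markers, led by Tubb3 and Stmn2, summed to 844, 380.2 and 47.7 in wild-type mice 2, 4 and 5 against 446, 1520.3 and 26.8 FPKM in Plekhg5-deficient mice 2, 3 and 5. In both nerves numbered 5 these markers were thus low, and 7 of the 8 were below all other libraries there, although none was at 0. The 10 endothelial markers (115 to 239.6 FPKM) and the 9 macrophage markers (139 to 343 FPKM) were highest in the nerves numbered 5, T-cell and B-cell markers in wild-type nerve 5 (148 and 134 FPKM against at most 9.64 and 7.08), and erythroid and skeletal muscle markers in Plekhg5-deficient nerve 5 (230113 and 37682 FPKM against at most 24326 and 13929). Markers of lymph node stroma summed to 312 and 198 FPKM in wild-type and Plekhg5-deficient nerve 5 against at most 44.9 FPKM in the others, and those of smooth muscle and pericytes to 2009 and 1301 FPKM against at most 804.

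Most of these genes were transcribed in the adult nerve. Averaged over the 6 libraries, 11 of the 69 were at 10 FPKM or more, 38 between 1 and 10, 16 between 0.1 and 1, and 4 (Epha10, Epha8, Robo3 and Unc5d) below 0.1. Sema3b, a secreted class 3 semaphorin, was the most abundant and lay at 66.6, 128 and 75.2 in wild-type mice 2, 4 and 5 against 110.3, 102 and 54.5 FPKM in Plekhg5-deficient mice 2, 3 and 5. Its lowest library was above the highest library of every other gene in the selection, and it made up 67.8% to 82.8% of the summed FPKM of class 3 semaphorins in each nerve. After it came, by mean level, the plexin Plxnd1 (22.6 FPKM), the membrane-bound semaphorins Sema5a (21.3) and Sema6d (19.8), the ligand Slit2 (18.3), the kinase-inactive receptor Ephb6 (17.4) and the netrin Ntn1 (16.7). The ranges of these neighbors over the 6 libraries overlapped, so that their order is not settled by these values.

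Within several families the same member was the highest in each nerve. Sema5a made up 96.4% to 99.2% of the class 5 semaphorins, Efna1 66.3% to 74.9% of the ephrin-A genes, and Slit2 70.5% to 80.7% of the Slits. The ratio of Ntn1 to Ntn4, both secreted netrins, varied little, from 1.62 to 1.85 over the 6 nerves, and that of the co-receptor Nrp1 to Nrp2 lay between 1.19 and 2.41. In contrast, the leading Robo receptor depended on the library. The ratio of Robo2 to Robo4, the Robo of endothelium, was 3.03, 2.12 and 0.241 in wild-type nerves 2, 4 and 5 and 2.43, 6.77 and 0.10 in Plekhg5-deficient nerves 2, 3 and 5. Robo4 was thus the higher of both in the nerves numbered 5 and Robo2 in all others. Plxnd1, the receptor of Sema3e, and Plxnb2, a receptor of class 4 semaphorins, changed order in the same way, with a ratio of at least 1.68 in 4 nerves and of 0.759 and 0.842 in the nerves numbered 5.

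**Figure D1:**
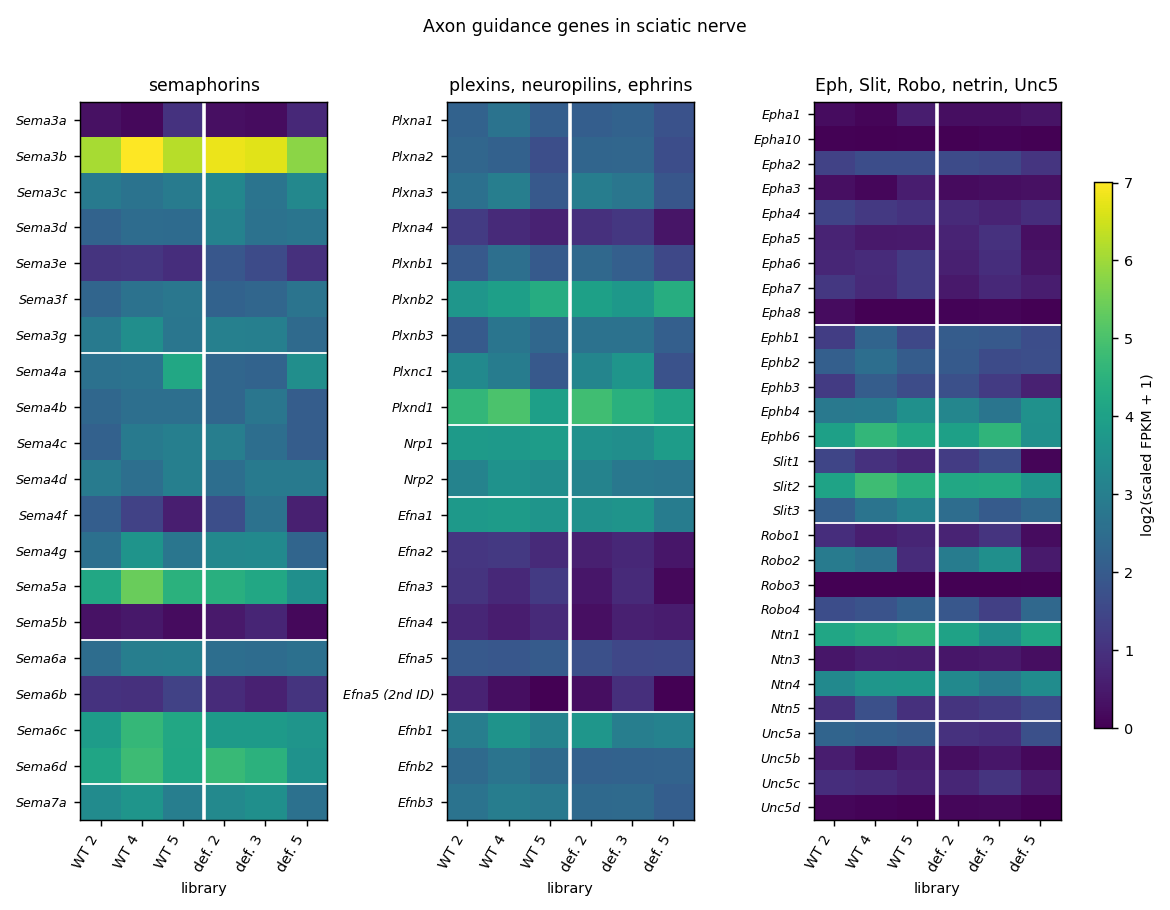
Level of each of the 69 axon guidance genes, as log2(scaled FPKM + 1) by color, in 3 wild-type (WT) and 3 Plekhg5-deficient (def.) sciatic nerves. Columns are libraries, a thick white line separates the genotypes, thin white lines separate families, and Sema3b is the brightest row in every library, between 54.5 and 128 FPKM.

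Between genotypes, none of the 65 genes that averaged 0.1 FPKM or more in wild-type or Plekhg5-deficient nerves differed at an adjusted p under 0.05 with limma over the 21285 genes tested, where 0.0094% of all genes were lower and 0.0282% higher (adjusted p of the 65 between 0.738 and 0.999). At an unadjusted p under 0.05, 5 of the 65 were lower in Plekhg5-deficient nerves (7.69%), namely Unc5a, Efnb3, Epha7, Efna2 and Efna3, and 0 were higher, against 2.69% lower and 2.42% higher among all genes. For 10 of the 65 (15.4%) the 3 Plekhg5-deficient values all lay below the 3 wild-type values, and for 1 (1.54%) they all lay above, against 5.87% and 5.7% of all genes. Of the 65 log2 fold changes, 46 (70.8%) were below 0, with a median of -0.14, against a median of 0.0071 and 48.8% below 0 over all genes tested. Plekhg5-deficient nerve 5 was the lowest library for 34 of the 69 genes, and without it the median was -0.09. An unadjusted p under 0.05 was then found for 1 lower and 1 higher of 66 genes tested, against 3.54% and 2.77% of all genes. Without both nerves numbered 5, 3 were lower and 1 higher at that p, against 3.47% and 2.75% of all genes. Without overlap, 16 were then lower and 7 higher, where 2 nerves per genotype gave 18.2% lower and 17.9% higher among all genes. The p-values rest on the spread between 3 animals per genotype, with the variance of each gene drawn toward a trend over all genes tested. With 3 against 3 the exact permutation p (two-sided) for 1 gene is at least 0.1.

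**Figure D2:**
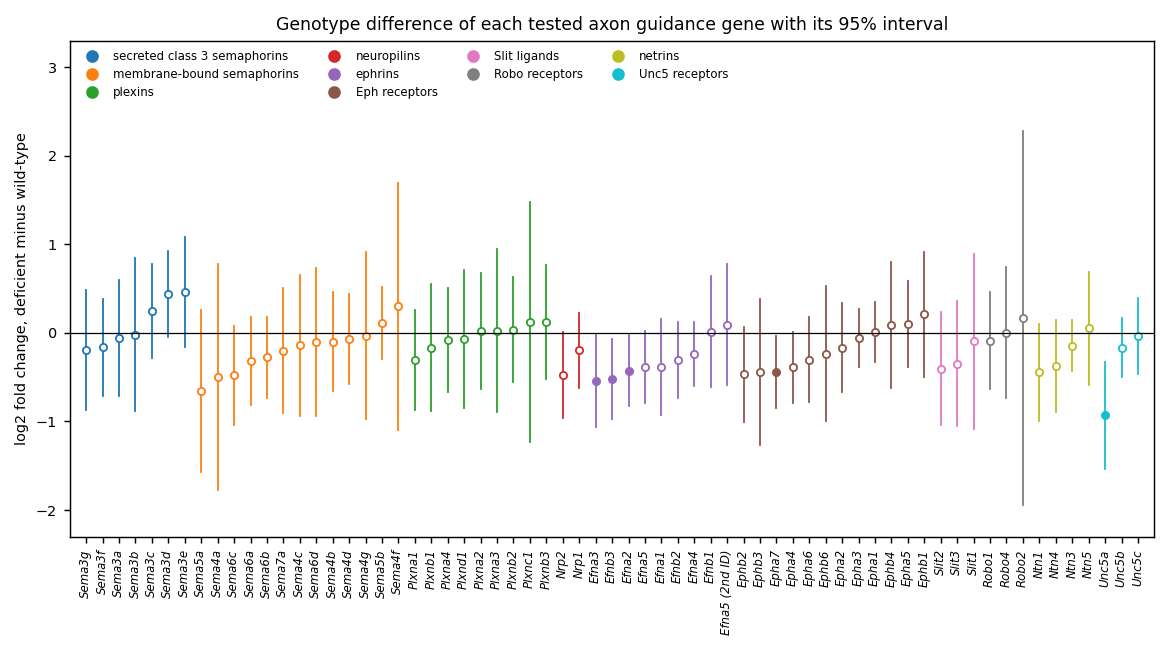
Log2 fold change (Plekhg5-deficient minus wild-type, of FPKM + 1) of each of the 65 tested genes, colored by role, with the 95% interval from limma as a vertical line and filled circles for the 5 genes with an unadjusted p under 0.05. The interval of Unc5a lies farthest below 0, from -1.54 to -0.32, and that of Robo2 is the widest.

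Unc5a, a netrin receptor that mediates repulsion, had the lowest p of the selection. It lies on chromosome 13 of GRCm38 from 54949411 to 55006018 and was at 3.78, 3.45 and 3.06 in wild-type mice 2, 4 and 5 against 1.01, 0.898 and 2.25 FPKM in Plekhg5-deficient mice 2, 3 and 5. All Plekhg5-deficient nerves were below all wild-type nerves, and nerve 5 was the highest of the Plekhg5-deficient nerves. The means were 3.43 ± 0.360 in wild-type against 1.39 ± 0.751 FPKM in Plekhg5-deficient mice (SD, n = 3 each), a 2.47-fold difference, with a log2 fold change of -0.93 (SE 0.25, adjusted p = 0.738 with limma). The Cufflinks 95% intervals, which cover the uncertainty of a single library, were 2.01 to 4.11 FPKM for wild-type nerve 5 and 1.19 to 3.32 FPKM for Plekhg5-deficient nerve 5, and overlap. Unc5b and Unc5c were below 1.1 FPKM in every nerve, with log2 fold changes of -0.17 and -0.037. The ligand Ntn1 was at 16.6, 19.2 and 22.2 in wild-type mice 2, 4 and 5 against 15.4, 10.3 and 16.8 FPKM in Plekhg5-deficient mice 2, 3 and 5, which overlap (log2 fold change -0.44, 95% interval -0.99 to 0.10). That of Ntn4, a netrin of basement membranes, was -0.37 (-0.89 to 0.14).

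Of the 9 ephrin entries, which count both of Efna5, 7 had a log2 fold change below 0, against 48.8% of all genes tested. Lower without overlap between genotypes were 5, and 3 were lower at an unadjusted p under 0.05 with limma, against 5.87% and 2.69% of all genes. Efnb3, a transmembrane ephrin (chromosome 11, 69554092 to 69560205), was at 5.41, 6.82 and 6.08 in wild-type mice 2, 4 and 5 against 4.24, 4.37 and 3.29 FPKM in Plekhg5-deficient mice 2, 3 and 5. The genotypes did not overlap, with a mean 1.54-fold below that of wild-type (log2 fold change -0.52, SE 0.19, adjusted p = 0.951 with limma). Efna2, a lipid-anchored ephrin, was at 1.14, 1.25 and 0.771 in wild-type against 0.530, 0.711 and 0.341 FPKM in Plekhg5-deficient mice. Efna3 was at 1.08, 0.743 and 1.29 in wild-type against 0.347, 0.799 and 0.103 FPKM in Plekhg5-deficient mice, where Plekhg5-deficient nerve 3 was above wild-type nerve 4. The log2 fold changes of Efna2 and Efna3 were -0.43 and -0.54 (SE 0.17 and 0.22, adjusted p = 0.969 each with limma). Among genes averaging 1 FPKM or more in one of the genotypes, their unadjusted p was 0.0898 and 0.0785 with limma.

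Efna1, the ephrin of highest mean, was at 12.5, 13.3 and 11.7 in wild-type against 10.6, 11.4 and 6.64 FPKM in Plekhg5-deficient mice. Its Plekhg5-deficient nerves 2 and 3 were close below wild-type nerve 5, and Plekhg5-deficient nerve 5 was the lowest. In Plekhg5-deficient nerves 2 and 5, Efnb1 was above Efna1. Efna5 (chromosome 17, 62604184 to 62881317) was at 2.87, 2.74 and 3.03 in wild-type against 2.28, 1.80 and 1.86 FPKM in Plekhg5-deficient mice, again without overlap. Efnb2, the ephrin of arteries, was at 4.32, 5.50 and 4.32 in wild-type against 3.55, 3.58 and 3.65 FPKM in Plekhg5-deficient mice, with the 3 Plekhg5-deficient nerves closely together. The log2 fold changes of Efna1, Efna5 and Efnb2 were -0.38, -0.38 and -0.31 (95% intervals -0.93 to 0.16, -0.80 to 0.027 and -0.74 to 0.12). Efnb1, the ephrin-B gene of highest mean, overlapped between genotypes and was at 7.06, 11.1 and 7.70 in wild-type against 11.8, 6.95 and 7.59 FPKM in Plekhg5-deficient mice (log2 fold change 0.013, -0.62 to 0.64). A second Efna5 entry, which lies inside the first on chromosome 17 from 62604292 to 62606707, was at most 0.936 FPKM. How reads were divided between both entries was not examined.

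Among the 14 Eph receptors, 12 were tested. Of these, 8 had a log2 fold change below 0 and 3 were lower without overlap, against 48.8% and 5.87% of all genes tested. Epha7 (chromosome 4, 28813131 to 28967499) was at 1.21, 0.780 and 1.28 in wild-type against 0.389, 0.743 and 0.473 FPKM in Plekhg5-deficient mice, with a log2 fold change of -0.44 (SE 0.17, adjusted p = 0.959 with limma). Its Cufflinks 95% intervals were 0.403 to 2.16 FPKM in wild-type nerve 5 and 0 to 0.973 FPKM in Plekhg5-deficient nerve 5, and overlap. Among genes averaging 1 FPKM or more in one of the genotypes, its unadjusted p was 0.0829 with limma. Epha4, which binds ephrins of both classes, was at 1.67, 1.23 and 1.05 in wild-type against 0.798, 0.616 and 0.874 FPKM in Plekhg5-deficient mice (log2 fold change -0.39, 95% interval -0.79 to 0.010). Ephb2, a receptor of ephrin-B proteins, was at 3.33, 4.80 and 3.07 in wild-type against 2.98, 2.06 and 2.19 FPKM in Plekhg5-deficient mice (log2 fold change -0.47, -1.0 to 0.07). For Epha7 and Ephb2 the nearest libraries of both genotypes were almost equal. Epha2, the EphA receptor of highest mean, although below Epha4 in wild-type nerve 2, was at 1.60, 2.13 and 2.15 in wild-type against 2.02, 1.83 and 1.12 FPKM in Plekhg5-deficient mice and overlapped. Ephb6, the Eph receptor of highest mean, although just below Ephb4 in Plekhg5-deficient nerve 5, was at 14.9, 24.1 and 16.9 in wild-type against 14.8, 23.1 and 10.6 FPKM in Plekhg5-deficient mice and overlapped as well (log2 fold change -0.23, -0.99 to 0.53). Ephb4, the partner of Efnb2 in veins, was highest in the nerves numbered 5 and had a log2 fold change of 0.092 (-0.62 to 0.80).

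Of the 65 genes tested, Unc5a, Efnb3, Sema6c, Ephb2, Epha7, Efna2, Epha4, Efna5, Efna1 and Efnb2 on the lower side and Sema3d on the higher side were without overlap between genotypes. Sema6c, a transmembrane semaphorin (chromosome 3, 95160457 to 95174024), was at 13.7, 24.6 and 17.3 in wild-type against 13.2, 13.1 and 11.7 FPKM in Plekhg5-deficient mice. Wild-type nerve 2 was just above Plekhg5-deficient nerve 2, and the log2 fold change was -0.48 (95% interval -1.04 to 0.08, adjusted p = 0.973 with limma). Sema3d, a secreted semaphorin (chromosome 5, 12383166 to 12588943), was at 3.67, 4.57 and 4.46 in wild-type against 7.59, 5.26 and 5.60 FPKM in Plekhg5-deficient mice, 1.45-fold higher in the mean of Plekhg5-deficient nerves. Its log2 fold change was 0.44 (-0.047 to 0.93, adjusted p = 0.973 with limma). Sema3e, the ligand of Plxnd1, was higher in Plekhg5-deficient nerves 2 and 3 (2.71 and 2.03 FPKM) than in wild-type nerves (0.883 to 1.17 FPKM), while Plekhg5-deficient nerve 5 was at 0.971 FPKM.

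**Figure D3:**
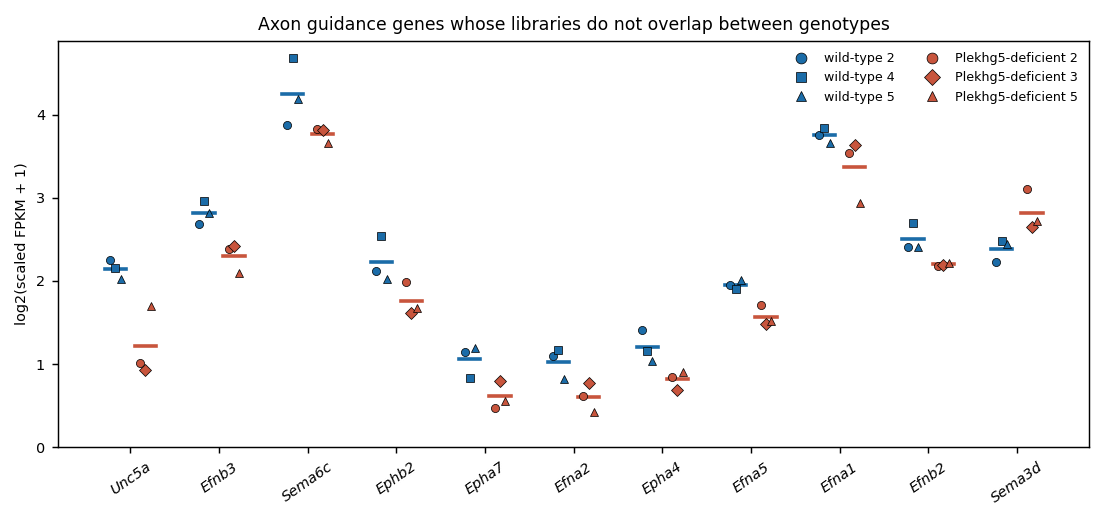
Scaled FPKM, as log2(FPKM + 1), of the 11 axon guidance genes without overlap between genotypes, in each of 3 wild-type (blue) and 3 Plekhg5-deficient (red) sciatic nerves. Symbols are libraries, bars are means of 3, and the first 10 genes are lower and Sema3d is higher in Plekhg5-deficient nerves. For Efna1, Efna2, Ephb2, Sema6c and Epha7 the nearest libraries of both genotypes almost touch.

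NF-κB signaling can be switched on by Plekhg5, as background, and a link to these genes was not tested. Promoters of all genes were searched for the NF-κB consensus motif of 10 bases on both strands. Promoter sequences from RefSeq (GRCm38.p6, from 250 bases before to 50 after a start of the gene) were matched for 59 of the 68 symbols. The motif was in 7 of the 59 (11.9%), against 6.35% of the tested genes with a promoter and 5.14% of all genes with a promoter. Sites were listed only for the genes lower without overlap, which were picked from these same data, and not for Sema3d. Of the 9 such genes with a promoter sequence, 3 held the motif, and this share was not tested against the others. These 3 are shown here with the motif in capitals and 10 bases on each side, 5′ to 3′ on the strand of the gene.
Ephb2 (chr4:136836204-136836233, minus strand): tgctgcgcggGGGGGATTCCggggtcccgg
Efna2 (chr10:80179472-80179501, plus strand): acaaaggcgaGGGGAGCCCCcgcgcccggg
Sema6c (chr3:95164347-95164376, plus strand): catgggtgagGGGGTACCCCctggggcgtg
The match began 211 bases before the start in Ephb2, at the start itself and on the opposite strand in Efna2, and 18 bases after a start and on both strands in Sema6c. A match of letters says nothing on binding, and the promoter of Unc5a held none in this window, which says nothing on the factor.

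The other semaphorins, plexins and neuropilins overlapped between genotypes. Sema3b, the most abundant gene of the selection, had means of 89.8 ± 33.0 in wild-type against 88.8 ± 30.03 FPKM in Plekhg5-deficient mice (SD, n = 3 each) and a log2 fold change of -0.022, with a 95% interval from -0.89 to 0.84. Sema5a, a transmembrane semaphorin with thrombospondin repeats, had the lowest log2 fold change among semaphorins (-0.66, -1.57 to 0.25) and was at 17.3, 41.2 and 21.3 in wild-type mice 2, 4 and 5 against 20.2, 17.4 and 10.3 FPKM in Plekhg5-deficient mice 2, 3 and 5. Wild-type nerve 4 was far above all others, and without it the log2 fold change was -0.30. Sema6d was at 16.3, 26.9 and 17.2 in wild-type against 25.3, 21.8 and 10.9 FPKM in Plekhg5-deficient mice, and Sema7a, the lipid-anchored semaphorin, at 9.34, 11.5 and 6.92 in wild-type against 8.77, 10.3 and 5.12 FPKM in Plekhg5-deficient mice. Sema3g, an endothelial class 3 semaphorin, was at 6.22, 10.1 and 5.75 in wild-type against 7.35, 7.09 and 4.35 FPKM in Plekhg5-deficient mice, and Sema4g at 5.05, 11.3 and 5.78 in wild-type against 8.67, 9.05 and 3.84 FPKM in Plekhg5-deficient mice. The log2 fold changes of Sema6d, Sema7a, Sema3g and Sema4g lay between -0.20 and -0.033.

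Plxnd1 was at 24.1, 31.8 and 14.5 in wild-type mice 2, 4 and 5 against 27.8, 20.8 and 16.5 FPKM in Plekhg5-deficient mice 2, 3 and 5 (log2 fold change -0.071, -0.85 to 0.71). Plxnb2 was at 11.9, 14.4 and 19.1 in wild-type against 14.7, 12.4 and 19.6 FPKM in Plekhg5-deficient mice (log2 fold change 0.038, -0.55 to 0.63), with both nerves numbered 5 above the others. The log2 fold changes of the 9 plexins ranged from -0.31 to 0.13, 4 below and 5 above 0, against 48.8% below 0 over all genes tested. Nrp1, the co-receptor of class 3 semaphorins and of vascular endothelial growth factor, was at 13.2, 12.9 and 13.7 in wild-type against 10.7, 10.1 and 13.8 FPKM in Plekhg5-deficient mice, and only Plekhg5-deficient nerve 5 reached the wild-type level. Nrp2 was at 7.76, 10.8 and 9.82 in wild-type against 7.78, 6.05 and 5.71 FPKM in Plekhg5-deficient mice, where Plekhg5-deficient nerve 2 was just above wild-type nerve 2 (log2 fold change -0.48, -0.96 to 0.011). Slit2 was at 15.8, 27.4 and 19.9 in wild-type against 17.3, 18.0 and 11.4 FPKM in Plekhg5-deficient mice (log2 fold change -0.40, -1.04 to 0.24). All 3 Slits and 48.8% of all genes tested had a log2 fold change below 0. No Slit had an unadjusted p under 0.05 with limma.

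The remaining semaphorins were at intermediate or low levels, all with overlap between genotypes. Among secreted semaphorins, Sema3c, which acts in the heart and blood vessels, was at 5.40 to 8.69 FPKM over the 6 nerves, with a log2 fold change of 0.25 (-0.28 to 0.78). Sema3f, a ligand of Nrp2, was at 3.63 to 5.86 FPKM and Sema3a, the classic repellent of sensory axons and a ligand of Nrp1, at 0.105 to 1.03 FPKM. Their log2 fold changes were -0.16 and -0.054 (-0.71 to 0.39 and -0.71 to 0.60). Of class 4, Sema4d, the ligand of Plxnb1, was at 4.81 to 7.18 FPKM, Sema4c at 3.18 to 7.06 FPKM and Sema4b at 3.18 to 5.77 FPKM. The log2 fold changes of these 3 lay between -0.14 and -0.072, and the interval of Sema4d was -0.58 to 0.44. Sema6a, a ligand of class A plexins, was at 4.56 to 7.14 FPKM (log2 fold change -0.31, -0.81 to 0.18). Sema6b and Sema5b were low, at 0.569 to 1.61 FPKM and 0.10 to 0.650 FPKM.

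The remaining receptors overlapped between genotypes as well. Class A plexins, which signal for class 3 and class 6 semaphorins, were at 2.69 to 7.01 FPKM for Plxna3, 2.39 to 5.30 FPKM for Plxna1, 2.15 to 3.99 FPKM for Plxna2 and 0.324 to 1.33 FPKM for Plxna4. Plxna1 had the lowest log2 fold change of the plexins (-0.31, -0.87 to 0.25). Plxnb1, the receptor of Sema4d, was at 1.86 to 4.92 FPKM (-0.17, -0.88 to 0.55). Among Eph receptors, Ephb1 was at 1.40 to 3.75 FPKM and Ephb3 at 0.557 to 3.21 FPKM, with log2 fold changes of 0.21 (-0.49 to 0.91) and -0.44 (-1.27 to 0.38). Epha5 and Epha6 were at 0.216 to 1.0 FPKM and 0.284 to 1.27 FPKM, and Epha1 and Epha3 were below 0.5 FPKM in every nerve. Slit3 was at 3.07 to 7.58 FPKM, with a log2 fold change of -0.35 (-1.05 to 0.36). Robo1, a receptor of all Slits, was at 0.173 to 1.08 FPKM (-0.087, -0.64 to 0.46). Ntn5 was at 0.940 to 2.29 FPKM and Ntn3 at 0.193 to 0.498 FPKM, and the ephrin Efna4 at 0.212 to 0.799 FPKM. Epha10, Epha8, Robo3 and Unc5d, which were not tested, reached at most 0.0558, 0.166, 0.0327 and 0.117 FPKM in any library.

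Some of the widest ranges between nerves in this selection did not follow genotype. Robo2, a receptor of Slits, was at 6.53, 5.20 and 0.834 in wild-type mice 2, 4 and 5 against 6.66, 10.3 and 0.420 FPKM in Plekhg5-deficient mice 2, 3 and 5, a 24.5-fold range. Both nerves numbered 5 were low and the other 4 were high, in either genotype, and the log2 fold change of 0.17 had a 95% interval from -1.94 to 2.29. Plxnc1, the plexin that binds Sema7a, was at 9.03, 6.62 and 2.89 in wild-type against 8.04, 11.7 and 2.37 FPKM in Plekhg5-deficient mice. Sema4f, a transmembrane semaphorin, was at 3.25, 1.61 and 0.490 in wild-type against 2.24, 5.18 and 0.545 FPKM in Plekhg5-deficient mice, and Slit1, the Slit typical of neurons, at 1.76, 1.02 and 0.729 in wild-type against 1.37, 2.11 and 0.0675 FPKM in Plekhg5-deficient mice. These 4 genes shared the low level of both nerves numbered 5, and Plekhg5-deficient nerve 3 was the highest library for each.

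The summed FPKM of the 8 neuronal markers ordered the nerves in the same way, from Plekhg5-deficient nerve 5 (26.8 FPKM) over wild-type nerves 5 and 4, Plekhg5-deficient nerve 2 and wild-type nerve 2 to Plekhg5-deficient nerve 3 (1520.3 FPKM). Of the 15 possible pairs of libraries, all 15 were in the same order for Plxnc1 and Slit1, and 14 for Robo2, Sema4f, Plxna2, Plxna4, Epha5 and Unc5c. This measure of likeness was chosen after the values were seen. With the short second entry of Efna5, also at 14 pairs, these are 9 of 65 (13.8%), beside 6.2% of all genes tested with at least 14. That entry lies inside the main entry of Efna5, which had 6 pairs in this order. How reads were divided between both was not examined, so that the order of the short entry is not a result on Efna5. Over all genes, 16.9% were below the other 4 libraries in both nerves numbered 5, and of the 65 it was 14 (21.5%). Neuronal marker Tubb3, a tubulin, was at 259, 90.7 and 3.62 in wild-type against 135, 449 and 2.88 FPKM in Plekhg5-deficient mice, and Stmn2, a regulator of microtubules in growing axons, at 186, 96.3 and 19.2 in wild-type against 116, 347 and 14.3 FPKM in Plekhg5-deficient mice. Neuronal cell bodies lie outside the sciatic nerve, in spinal cord and dorsal root ganglia, and the part of neuronal RNA in these differences was not tested. Without both nerves numbered 5 the log2 fold change of Robo2 was 0.43 (unadjusted p = 0.160 with limma).

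A set of genes was high in both nerves numbered 5, as were 6 of the 10 endothelial and 7 of the 9 macrophage markers, 5 of 9 markers of smooth muscle and pericytes, 4 of 6 of lymph node stroma, 4 of 8 of B-cells, 4 of 10 of T-cells, 4 of 12 of skeletal muscle and 6 of 6 erythroid markers. Robo4 was at 2.15, 2.45 and 3.47 in wild-type against 2.74, 1.52 and 4.19 FPKM in Plekhg5-deficient mice, and Ephb4 at 6.08, 6.24 and 10.5 in wild-type against 8.24, 5.58 and 10.7 FPKM in Plekhg5-deficient mice. Both had at least 14 of 15 library pairs in the order of the summed endothelial markers, and these 2 of 65 genes (3.08%) stand beside 2.01% of all genes tested. Of other genes known from blood vessels, Nrp1 and Sema3c had 13 of 15 pairs in this order. Sema3g had 3, Plxnd1 5 and Efnb2 6, and Sema3g and Plxnd1 were below the other 4 libraries in both nerves numbered 5. Sema4a, a semaphorin of immune cells, was at 5.14, 5.33 and 17.4 in wild-type mice 2, 4 and 5 against 3.96, 3.66 and 9.996 FPKM in Plekhg5-deficient mice 2, 3 and 5. Wild-type nerve 5, the library with the highest T-cell, B-cell and lymph node stroma markers, was the highest, followed by Plekhg5-deficient nerve 5, and macrophage markers summed to 329 and 343 FPKM in these nerves. Sema4a had 12 of 15 pairs in the order of the macrophage markers, fewer than 14. Nrp1 and Plxnb2 had 12 as well, and Sema4a had 11 in the order of the endothelial markers. Sema3f was the 1 gene of 65 (1.54%) with at least 14 in the macrophage order, against 0.973% of all genes. The log2 fold change of Sema4a was -0.50, and 0.016 without wild-type nerve 5. In all, 10 of the 65 genes (15.4%) were above the other 4 libraries in both nerves numbered 5, against 15.3% of all genes, and the part of other cell types in their values was not tested. The order of the myelin markers was shared in all 15 pairs by Plxnb3 and in 14 by Sema4g, 2 of 65 genes (3.08%) against 0.521% of all genes tested with at least 14. Plxnb3, a plexin of myelinating glia, was at 2.92, 5.60 and 4.02 in wild-type against 5.20, 5.27 and 3.33 FPKM in Plekhg5-deficient mice.

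**Figure D4:**
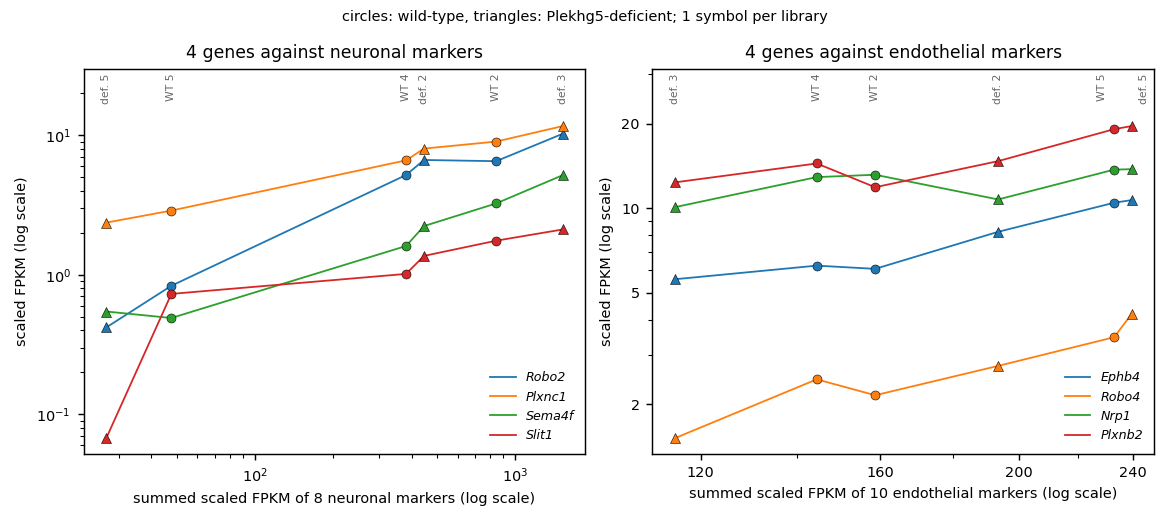
Scaled FPKM of 4 axon guidance genes against the summed scaled FPKM of 8 neuronal markers (left) and of 4 others against that of 10 endothelial markers (right), all axes logarithmic. Each symbol is 1 library (circles wild-type, triangles Plekhg5-deficient, named at the top), lines join the libraries of a gene, and the nerves numbered 5 lie at the low end on the left and at the high end on the right. The panels show only genes with at least 13 of 15 library pairs in the order of these markers. Sema3g, Plxnd1 and Efnb2, with 3 to 6 pairs in the endothelial order, are not shown.

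Genes that act beside or below these receptors were described from 2 further lists. Of 29 entries for co-receptors and other guidance cues, 26 were tested, 0 passed at an adjusted p under 0.05 with limma, and an unadjusted p under 0.05 was found for 3 lower and 0 higher genes, against 2.69% and 2.42% of all genes (median log2 fold change -0.13). Without overlap between genotypes, 3 were lower and 1, Mcam, was higher, against 5.87% and 5.7%. Rgma, a lipid-anchored repulsive cue that binds neogenin (chromosome 7, 73375520 to 73419899), was at 12.8, 18.8 and 17.5 in wild-type mice 2, 4 and 5 against 9.58, 7.71 and 9.44 FPKM in Plekhg5-deficient mice 2, 3 and 5. All Plekhg5-deficient nerves were below all wild-type nerves, 1.84-fold in the mean, with a log2 fold change of -0.80 (SE 0.20, adjusted p = 0.682 with limma). Flrt1 and Flrt2, which encode adhesion proteins that bind Unc5 receptors, had log2 fold changes of -0.29 and -0.61, with no overlap for Flrt1 at 0.426 to 0.440 against 0.112 to 0.229 FPKM. The most abundant entries were Itgb1, Rgmb and Mcam.

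Of 47 intracellular effectors, all tested, 0 passed at an adjusted p under 0.05 with limma, and an unadjusted p under 0.05 was found for 2 lower and 0 higher genes, against 2.69% and 2.42% of all genes (median log2 fold change -0.064). The 3 genes lower without overlap were Tiam1, Farp1 and Ngef, and 1, Rhoa, was higher, against 5.87% and 5.7%. Tiam1, an exchange factor that activates Rac (chromosome 16, 89787111 to 89980080), was at 6.85, 9.50 and 7.63 in wild-type mice 2, 4 and 5 against 4.48, 4.37 and 4.37 FPKM in Plekhg5-deficient mice 2, 3 and 5. The 3 Plekhg5-deficient nerves were almost equal and below all wild-type nerves (log2 fold change -0.72, SE 0.18, adjusted p = 0.682 with limma). Farp1, an exchange factor that acts with class A plexins, was at 5.22, 6.44 and 6.26 in wild-type against 4.73, 3.89 and 3.77 FPKM in Plekhg5-deficient mice (log2 fold change -0.44). Rac1, Cdc42 and Cfl1, the most abundant effectors, had log2 fold changes of 0.13, 0.22 and -0.056.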

How the data were processed

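RNA of 6 whole sciatic nerves was sequenced after library preparation with an mRNA kit. According to the submitters' processing notes, the authors used FastQC 0.10.1, Trim Galore 0.4.0 and Cufflinks 2.2.1 on GRCm38, and by the methods of the study the reads were aligned with STAR. The deposited values are FPKM per gene with the intervals of Cufflinks, 1 table per library, and the sources used here give no counts, depth or annotation release. Values of 19 duplicated identifiers were summed. Libraries were scaled by the median of ratios, and genes averaging 0.1 FPKM or more in one of the genotypes entered the test. For these, log2(FPKM + 1) was tested with limma 3.58.1 (R 4.3.3) with a mean-variance trend and Benjamini-Hochberg adjustment over 21285 genes, after a test on simulated data. The simulated noise was independent for each gene and library, without any pattern shared between libraries as in the real nerves. File starts were counted from 0 and are given from 1.

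Values in every library are given for members at an adjusted or unadjusted p under 0.05 or without overlap between genotypes, for the leading members of each family, and for members at least 2-fold higher in 1 library than in any other, with the others given by range; from the pathway lists, those at an unadjusted p under 0.05 without overlap and the 3 of highest mean were named. Robo2, Plxnc1, Sema4f, Slit1, Robo4, Ephb4, Plxnb3, Sema3e and Flrt2 and any other gene beyond this rule were chosen after their values were seen. The members and the lists of markers, co-receptors and effectors were chosen with earlier results of these data known. Alternatives were other pseudocounts, filters and scalings, array weights, the replicate number as a block, and leaving out libraries.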

Additional observations from a re-analysis of the deposited data

How the results depend on the processing

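No axon guidance gene passed at an adjusted p under 0.05 with limma under any alternative. In the fit with the replicate number as a block, wild-type nerve 4 and Plekhg5-deficient nerve 3 were each alone in their number. They therefore did not enter the genotype difference, which rested only on the nerves numbered 2 and 5. At an unadjusted p under 0.05, the 5 lower and 0 higher became 7 and 0 of 69 with no filter (2.71% and 2.62% of all genes). They were 6 and 0 with FPKM as deposited (3.54% and 1.12%) and 7 and 2 with array weights (5.50% and 6.04%). A pseudocount of 0.1 gave 3 and 0 (2.91% and 2.47%), and a minimum of 1 FPKM 3 and 0 of 52 (2.88% and 2.65%). The replicate number as a block gave 2 and 0 (2.89% and 1.58%), and leaving out both nerves numbered 5 gave 3 and 1 (3.47% and 2.75%). Without overlap, the 10 lower and 1 higher became 14 and 0 with FPKM as deposited (8.66% and 2.46%), and 16 and 7 without both nerves numbered 5 (18.2% and 17.9%). Leaving out 1 library at a time gave 1 to 5 lower and 0 to 1 higher at an unadjusted p under 0.05 (1.60% to 3.54% and 1.57% to 2.77% of all genes), and 11 to 19 lower and 1 to 6 higher without overlap (9.10% to 12.6% and 9.30% to 11.7%). Of 450 log2 fold changes of named genes under the alternatives, 416 kept direction and call and 34 reversed. The reversed values were -0.13 for Efnb1 and -0.12 for Plxnb2 with FPKM as deposited, where the median of all genes was -0.094. With array weights they were 0.15 for Sema3b, 0.088 for Sema4g and 0.14 for Sema6d. With the replicate block they were 0.19 for Plxnd1, -0.17 for Robo2, 0.13 for Sema3b and 0.095 for Sema4g. Without both nerves numbered 5 they were 0.026 for Epha2, 0.18 for Sema3b, 0.18 for Sema4g and 0.14 for Sema6d. Leaving out 1 library at a time gave -0.20 to 0.19 for Efnb1, -0.14 to 0.20 for Plxnb2, -0.37 to 0.17 for Plxnd1, -0.21 to 0.29 for Sema3b, -0.34 to 0.027 for Sema3g, -0.22 to 0.31 for Sema4g, -0.33 to 0.24 for Sema6d, -0.47 to 1.09 for Robo2, -0.91 to 0.016 for Sema4a, -0.51 to 0.014 for Ephb6 and -0.38 to 0.055 for Sema7a. The cause was not tested. With the block, the log2 fold change of Unc5a was -0.78, and the unadjusted p was 0.0856 for Unc5a, 0.135 for Efnb3, 0.0847 for Efna2, 0.0775 for Rgma and 0.0724 for Tiam1, past 0.05 in each, and 0.0193 for Efna3 and 0.0296 for Epha7. Over all genes, calls at an adjusted p under 0.05 went from 8 to 0 with the block, that of Plekhg5 included, and were 0 without wild-type nerve 2 or wild-type nerve 4. Numbers 2 and 5 occur in both genotypes, but no label says that they mark a pair, and deviations from the group means correlated at 0.0732 for number 2 and 0.580 for number 5. Between nerves of unlike number these correlations ranged from -0.522 (wild-type 4, Plekhg5-deficient 5) to 0.457 (wild-type 4, Plekhg5-deficient 2). Depth is unknown, so that no counting limit could be given.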
